A study of Mus musculus with 6 samples.

Results

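Integrins are the receptors through which smooth muscle cells grip their matrix, and the genes described here are 10 integrin subunits known from smooth muscle: Itga1, Itga5, Itga7, Itga8, Itga9, Itgav, Itgb1, Itgb3, Itgb5 and Itgb8. They were chosen by name among the 32179 genes listed for RNA of vascular smooth muscle cells from mouse skeletal muscle, and each matched 1 listed gene. The KO group held 3 libraries from iSM-G5C-KO mice after tamoxifen induction, with Gprc5c, the gene of an orphan G protein-coupled receptor, depleted from smooth muscle cells. The control group held 3 libraries from control mice induced in the same way, whose genotype label is wild type while the tissue label of all 6 libraries reads Gprc5c-floxed. Both groups were male C57BL6J mice, labelled with the same range of 8 to 24 weeks of age, and carried the mTmG reporter, whose EGFP marks cells with a history of Cre activity. The sources used here name neither the Cre driver nor the number of animals behind a library. Cells carrying CD31, CD45 or Ter119 were depleted from digested muscle before viable EGFP-positive cells were sorted. Sorting on EGFP selects cells that recombined the reporter, which need not have lost Gprc5c.

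An integrin is a pair of 1 alpha and 1 beta chain that spans the membrane. The outer parts bind collagen, laminin, fibronectin or other matrix proteins, and the short inner tail of the beta chain is tied to actin through talin, kindlin and the ILK complex. In the vessel wall this link carries the force of contraction to the matrix, and integrins that contain the alpha v chain can also release TGF-beta from its latent complex.

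All values are normalised counts, taken here to be reads per gene scaled by the authors with 1 factor for each library. The libraries held an estimated 1478541 to 2581454 reads in the KO group and 1556750 to 2933171 in the control group, and the number of genes above 0 was 20774 to 20937 in KO libraries and 20481 to 29707 in controls, with the top value in control library 3. Gprc5c, the depleted gene, had normalised counts of 328, 305 and 360 in KO libraries 1, 2 and 3 and 428, 532 and 497 in control libraries 1, 2 and 3. Every KO library was below every control, with 68.2% of the control mean left, yet Gprc5c itself did not pass over all genes (limma adjusted p = 0.999, and 0.142 with the replicate number as a block), so a change of that size could be missed here. Summed over 7 smooth muscle markers, normalised counts were 7930 to 9297 in KO libraries and 9089 to 9708 in controls, with 1 of 7 higher on average in the KO group, and Acta2 and Myh11 were abundant in every library. Markers of other cells were also present, and those of pericytes and skeletal muscle fibres are given beside the results they accompany. The 8 endothelial markers summed to 330 to 845 in KO libraries and 306 to 575 in controls, with 8 of 8 higher on average in the KO group and 0 listed at 0. The 6 fibroblast markers summed to 1672 to 2825 and 1924 to 2977 in KO and control libraries, with 2 of 6 higher. The 7 leukocyte markers summed to 92 to 436 in KO libraries and 88 to 349 in controls, with Cd3e and Cd79a at 0 in at least 1 library. The 4 listed platelet markers, with Ppbp and Gp1ba at 0 in at least 1 library, summed to 17 to 32 and 9 to 37 in KO and control libraries. The 4 satellite cell markers, with Myod1 at 0 in at least 1 library, summed to 63 to 116 and 77 to 107, and the 4 Schwann cell markers to 171 to 319 and 152 to 307, again in KO and control libraries. In such bulk samples, fewer cells of a type and less RNA per cell cannot be told apart.

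Levels of different genes were compared as normalised counts per kb of annotated exon. Itgb1, the beta chain shared by most matrix-binding integrins, had the highest level, with 306.5, 314.1 and 347.7 per kb in KO libraries and 293.6, 296.0 and 309.5 in control libraries. It was above 99.6% of the tested genes. Its range over the 6 libraries did not overlap that of the next gene, Itga7, at 134.6 to 195.9 per kb in KO and 142.7 to 184.4 in control libraries. Itgb5 averaged 137.7 ± 21.8 per kb over all libraries, Itga8 118.4 ± 37.2 and Itga1 84.7 ± 14.1 (SD, n = 6 each). Itgb5 overlapped both Itga7, which was above it in 6 of 6 libraries, and Itga8, which it exceeded in 3 of 6. Itga8 overlapped Itga1 in turn.

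Itga5 and Itgav followed at 56.2 ± 10.1 and 48.5 ± 5.47 per kb, and Itga9 at 41.4 ± 7.36 (SD, n = 6 each). The ranges of neighbours in this part of the order overlapped as well. Itgb3 at 17.9 ± 5.18 per kb lay apart from Itga9 above it, and Itgb8 at 2.05 ± 0.849 lay apart below (SD, n = 6 each), so the most and the least abundant chains were both beta chains. The order rests on the annotated lengths. With the length of the longest protein-coding transcript in place of all exons, chosen after seeing the data, Itga7 stood at 324.0 per kb beside 332.9 for Itgb1, Itga8 passed Itgb5, Itgav passed Itga5, and the ranks of the other 6 genes held.

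**Figure D1:**
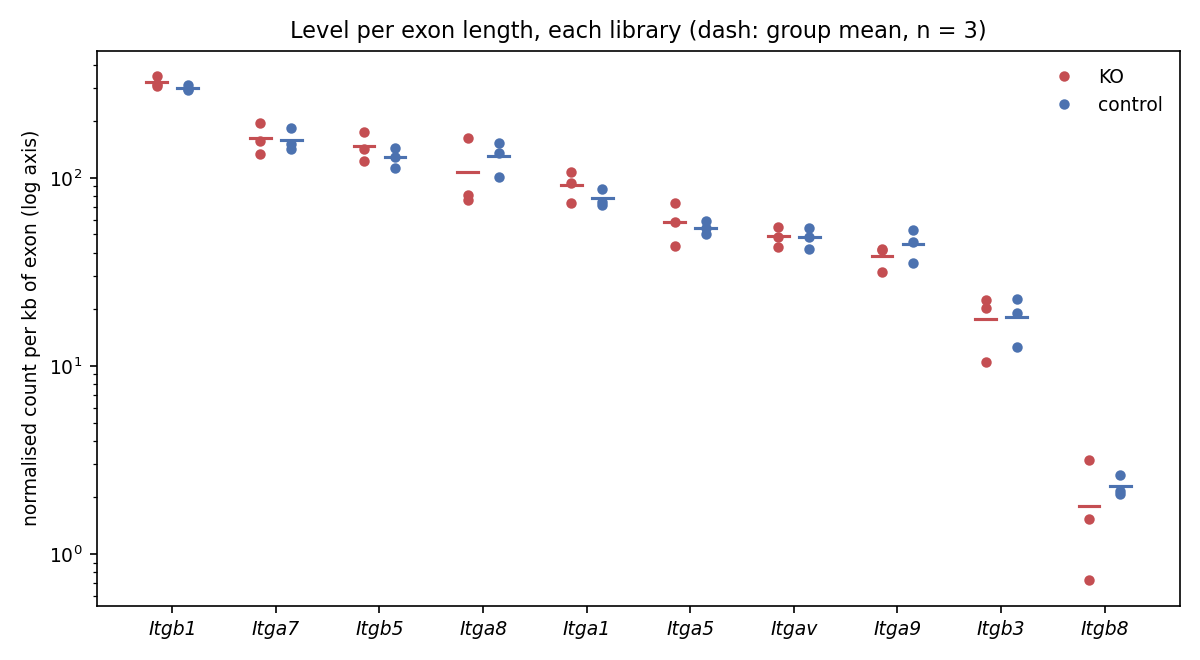
Normalised count per kb of exon (log axis) of the 10 integrin subunit genes in 3 KO and 3 control libraries, ordered by the mean over all 6; each point is a library and each dash a group mean. Itgb1 lies highest, between 293.6 and 347.7, and Itgb8 lowest, between 0.723 and 3.17.

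The top of this scale was narrow. Acta2, Myh11 and Flna, for smooth muscle actin, smooth muscle myosin and filamin A, averaged 504.3, 584.8 and 552.2 per kb over 6 libraries, and 99.9% of tested genes lay below 522.4. Itgb1, at 311.2 per kb, lay below these 3 genes. The sources used here do not say whether duplicate reads were removed.

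The comparison of KO with control libraries asked whether depletion of Gprc5c altered the level of these subunits. It was made with limma on log2(normalised count + 1) over all 12735 genes with a mean of at least 10, and all 10 integrin genes passed that filter. None of the 10 rose or fell at an adjusted p under 0.05, where 0% of all tested genes did. With the replicate number as a block 0 of the 10 passed too, where 0.00785% of the tested genes did, which is the single gene Cd300a. Without the block, an unadjusted p under 0.05 was reached by 0 of 10 integrin genes and by 1.81% of all genes. With the block it was reached by 4 of 10 and by 10.2%. The KO and control values overlapped in all 10 genes, while they did not overlap in 4.91% of all genes tested. The estimate was above 0 for 6 integrin genes and below 0 for 4, with a median log2 fold change of 0.02 beside 0.0011 over all genes. The 95% intervals of the 10 estimates, not adjusted for their number, all stopped short of a doubling, and those of 8 stopped short of a halving, which became 9 with the replicate block.

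**Figure D2:**
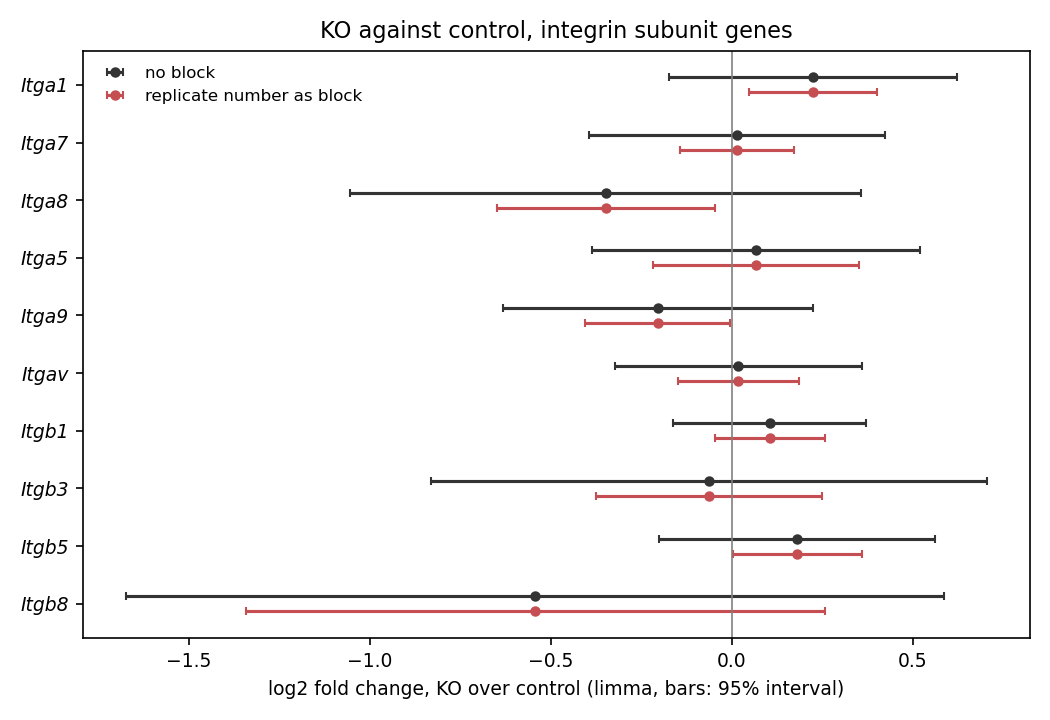
Log2 fold change of each gene, KO over control, with 95% intervals from limma without a block (dark) and with the replicate number as a block (red), for 3 KO and 3 control libraries. All 10 dark intervals include 0, from Itga1 at 0.23 to Itgb8 at -0.54; the widest is that of Itgb8.

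Among the alpha chains that bind collagen and laminin, Itga1 pairs with beta 1 as a collagen receptor that favours collagen IV of the basement membrane. Itga1 (ENSMUSG00000042284, chromosome 13, 114953096 to 115101964, minus strand, GRCm38) had normalised counts of 1371, 1753 and 1986 in KO libraries 1, 2 and 3 and 1329, 1381 and 1628 in control libraries 1, 2 and 3. KO libraries 2 and 3 were above all controls and KO library 1 lay among them. The log2 fold change was 0.23 ± 0.17 (SE, limma adjusted p = 0.999). Between same-numbered libraries the KO value was the higher one in all 3 cases, by 0.04, 0.34 and 0.29 on the log2 scale. The estimate was 0.11 without KO library 3 and 0.37 without KO library 1.

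Itga7 pairs with beta 1 as the laminin receptor of skeletal and smooth muscle. Itga7 (ENSMUSG00000025348, chromosome 10, 128933818 to 128958282, plus strand) had 1089, 1265 and 1585 in KO libraries and 1155, 1229 and 1492 in control libraries. The 2 groups covered almost the same range, with a log2 fold change of 0.01 and a 95% interval of -0.39 to 0.42. Since fibres carry Itga7 as well, the markers of skeletal muscle fibres stand beside it: 7 markers summed to 1784, 3724 and 8253 in KO libraries and 1235, 1778 and 2787 in control libraries, with 6 of 7 higher on average in the KO group and 0 listed at 0. Their part in the Itga7 values was not tested. Between same-numbered libraries 1, 2 and 3, Itga7 differed by -0.08, 0.04 and 0.09 on the log2 scale, KO minus control.

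Among the alpha chains that recognise the RGD motif, Itga8 pairs with beta 1 as a receptor for nephronectin, fibronectin and other ligands. Itga8 (ENSMUSG00000026768, chromosome 2, 12106632 to 12301922, minus strand) had normalised counts of 1201, 600 and 563 in KO libraries 1, 2 and 3 and 1132, 993 and 744 in control libraries 1, 2 and 3. KO library 1 was the highest of all 6, and KO libraries 2 and 3 were below every control. The means were 788.0 ± 358 in the KO group and 956.3 ± 197 in the control group (SD, n = 3 each), so the spread within the KO group exceeded the difference of the means. The log2 fold change was -0.35 ± 0.30 (SE, limma adjusted p = 0.999). Its 95% interval ran from -1.05 to 0.36 without the block and from -0.65 to -0.05 with it, so that a halving lay within the wider interval alone. The estimate was -0.70 without KO library 1 and -0.15 without KO library 3. An antisense RNA gene within the locus, E030013I19Rik, had 61, 28 and 20 in KO libraries and 59, 63 and 25 in control libraries, and the sources used here do not say whether reads were counted by strand.

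Itga5 makes the classical fibronectin receptor with beta 1. Itga5 (ENSMUSG00000000555, chromosome 15, 103344286 to 103366763, minus strand) had 286, 361 and 213 in KO libraries and 290, 267 and 247 in control libraries. The KO group held both the highest and the lowest of the 6 values, and the log2 fold change was 0.07 ± 0.19. (SE) The estimate was -0.12 without KO library 2 and 0.26 without KO library 3, so its sign rested on which library was present.

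Itgav encodes the alpha v chain, the vitronectin receptor subunit that pairs with several beta chains. Itgav (ENSMUSG00000027087, chromosome 2, 83724397 to 83806916, plus strand) had 590, 521 and 461 in KO libraries and 583, 520 and 450 in control libraries. Same-numbered libraries differed by 0.017, 0.0028 and 0.035 on the log2 scale, the closest match among the 10 genes. The log2 fold change of 0.02 had a 95% interval of -0.32 to 0.36.

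Itga9 pairs with beta 1 and binds tenascin C, VCAM-1, osteopontin and the matrix protein SVEP1. Itga9 (ENSMUSG00000039115, chromosome 9, 118606690 to 118901003, plus strand) had 323, 319 and 244 in KO libraries and 350, 404 and 272 in control libraries. It was the only one of the 10 with the KO value below the same-numbered control in all 3 cases, by differences of -0.12, -0.34 and -0.16 on the log2 scale. The groups overlapped, and the log2 fold change of -0.20 ± 0.18 (SE) did not pass (limma adjusted p = 0.999).

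Of the beta chains, Itgb1 (ENSMUSG00000025809, chromosome 8, 128685654 to 128733200, plus strand) had normalised counts of 1251, 1282 and 1419 in KO libraries and 1198, 1208 and 1263 in control libraries. It was the steadiest of the 10, with a log2 range over the 6 libraries of 0.24. The KO value was above the same-numbered control in all 3 cases, by 0.06, 0.09 and 0.17 on the log2 scale, and the log2 fold change was 0.11 with a 95% interval of -0.16 to 0.37.

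Itgb5 pairs with alpha v alone. Itgb5 (ENSMUSG00000022817, chromosome 16, 33829665 to 33949153, plus strand) had 438, 503 and 623 in KO libraries and 402, 456 and 513 in control libraries. Here too the KO value was above the same-numbered control in all 3 cases, by 0.12, 0.14 and 0.28 on the log2 scale, while the groups overlapped. The log2 fold change was 0.18 ± 0.16 (SE, limma adjusted p = 0.999).

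Itgb3 pairs with alpha v in vascular cells and with the Itga2b product in platelets. Itgb3 (ENSMUSG00000020689, chromosome 11, 104608000 to 104670476, plus strand) had 132, 120 and 62 in KO libraries and 113, 134 and 74 in control libraries. Itga2b had 17, 7 and 10 in KO libraries and 22, 5 and 11 in control libraries. The part of platelets in the Itgb3 values was not tested. The log2 fold change of Itgb3 was -0.06 ± 0.33 (SE), and its 95% interval ran from -0.83 to 0.70.

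Itgb8 pairs with alpha v and is known for releasing TGF-beta from its latent form. Itgb8 (ENSMUSG00000025321, chromosome 12, 119158022 to 119238802, minus strand) had 35, 17 and 8 in KO libraries 1, 2 and 3 and 29, 24 and 23 in control libraries 1, 2 and 3. KO library 1 was the highest and KO library 3 the lowest of the 6. These values rest on an estimated 42, 18 and 6 reads in the KO group and 38, 26 and 17 in the control group. The log2 fold change of -0.54 had a standard error of 0.49 (limma adjusted p = 0.999), and was -0.04 without KO library 3 and -1.04 without KO library 1. At this depth the 95% interval, -1.67 to 0.59, held both a halving and no change.

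**Figure D3:**
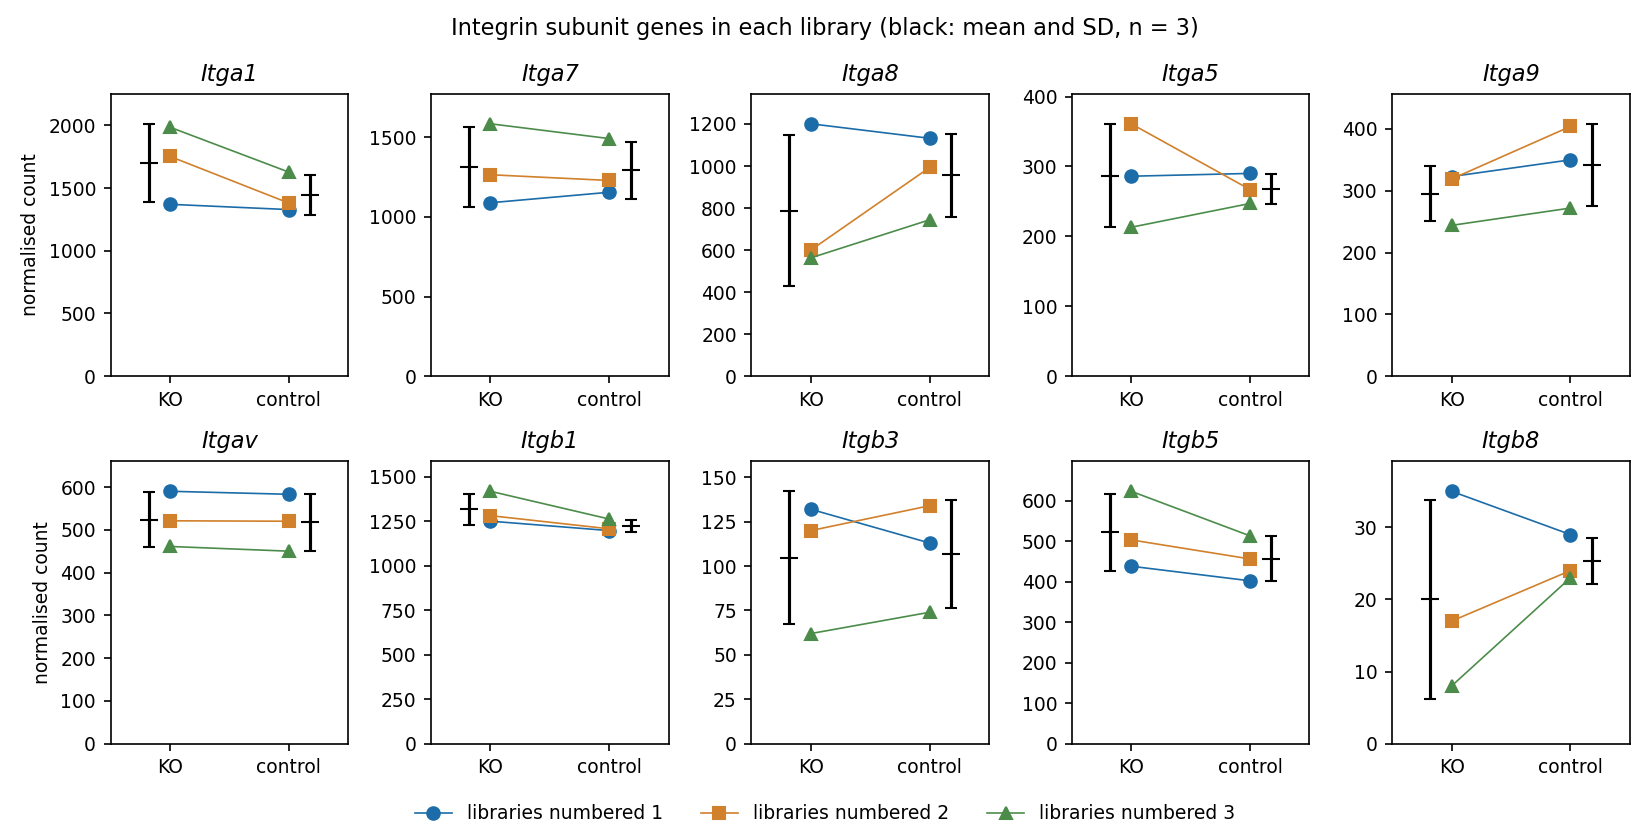
Normalised counts of the 10 genes in KO (left) and control (right) libraries; lines join libraries with the same number, and black bars are the mean and SD of 3 libraries. KO and control values overlap in every panel, and in Itgav same-numbered libraries nearly coincide.

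Values followed the library number in both groups. In all 10 genes the same number gave the lowest value in both groups, and in 7 of 10 the same number gave the highest. How many of all tested genes share this match was not counted. Over all tested genes, same-numbered libraries also deviated together, with correlations of 0.586, 0.31 and 0.444 for numbers 1, 2 and 3. Some ranks rest on close values, such as 24 and 23 for Itgb8 in control libraries 2 and 3. Itga1, Itga7, Itgb1 and Itgb5 were lowest in the libraries numbered 1 and highest in those numbered 3, in the KO group and in the control group. Itga5, Itga8, Itga9, Itgav, Itgb3 and Itgb8 were lowest in the libraries numbered 3 in both groups. Depth was also lowest in the libraries numbered 3, so number and depth cannot be told apart. The 5 pericyte markers summed to 7476, 9578 and 12524 in KO libraries and 6865, 8242 and 10858 in control libraries, with 5 of 5 higher on average in the KO group and 0 listed at 0. They thus followed the same order over the numbers as Itga1, Itga7, Itgb1 and Itgb5. So did the skeletal muscle fibre markers given above and the fibroblast markers, at 1672, 2618 and 2825 in KO libraries and 1924, 2443 and 2977 in control libraries. The 4 Schwann cell markers ran the other way, at 319, 180 and 171 in KO libraries and 307, 177 and 152 in control libraries. They fell from number 1 to number 3, as did Itga8, Itgav and Itgb8 in both groups. Of these markers, 3 of 4 were higher on average in the KO group. The other marker lists followed neither order in both groups. The part of any marker list in the integrin values was not tested.

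With the replicate number as a block the standard errors were smaller, 0.08 in place of 0.17 for Itga1 and 0.13 in place of 0.30 for Itga8. Then 4 of the 10 genes had an unadjusted p under 0.05 in limma, against 10.2% of all genes tested. These were Itga1 and Itgb5 with estimates above 0 and Itga8 and Itga9 with estimates below 0. Their adjusted p from limma with the block was 0.366 for Itga1, 0.474 for Itgb5, 0.424 for Itga8 and 0.475 for Itga9, so 0 of them passed.

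**Figure D4:**
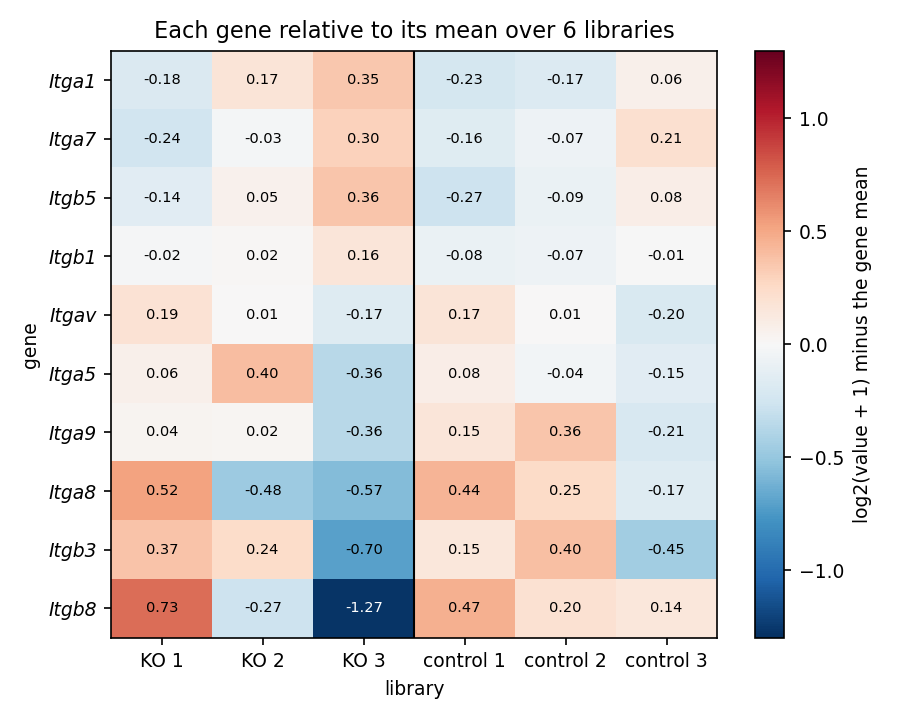
Each gene's log2(normalised count + 1) minus its mean over the 6 libraries, KO libraries left of the line and control libraries right; red is above and blue below the gene's mean. Itga1, Itga7, Itgb5 and Itgb1 are highest in the libraries numbered 3 of both groups, and the 6 lower rows are lowest there.

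The 3 genes with the widest range over the libraries were Itgb8, Itgb3 and Itga8. For each, the most similar genes were sought among 8282 others with a mean of at least 50, by the root mean square (RMS) difference of mean-centred log2 values over the 6 libraries. Closest to Itga8 were Slc48a1, Sorbs2 and Slc45a4, at RMS differences of 0.04, 0.05 and 0.05, where a flat profile would be at 0.43. Sorbs2, which encodes an adaptor of the actin cytoskeleton, had normalised counts of 1610, 811 and 755 in KO libraries and 1588, 1373 and 1090 in control libraries. Closest to Itgb3 were Casp12, Snx12 and Meis2, at 0.10, 0.14 and 0.14, with a flat profile at 0.42. Closest to Itgb8 were Dpysl3, Tiam2 and Prx, at 0.18, 0.18 and 0.20, with a flat profile at 0.65. With only 6 libraries and many candidates, this describes the libraries and no more.

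Since integrins work as pairs, the share of each chain among its possible partners was also taken, per kb of exon. Like the order of levels, these shares rest on the annotated lengths, and they were not taken by coding transcript length. By that length Itga7 stood at 324.0 per kb in place of 161.0, and Itga1 at 143.6 in place of 84.7. Among the alpha chains known to pair with beta 1, Itga7 held 27.3% ± 6.87 in KO libraries and 25.7% ± 4.76 in control libraries. Itga8 held 25.4%, 13.8% and 13.5% in KO libraries 1, 2 and 3 and 23.6%, 21.4% and 17.0% in control libraries 1, 2 and 3. Itga1 held 15.4% ± 3.72 and 12.5% ± 1.98 in KO and control libraries, Itga5 9.68% ± 2.43 and 8.68% ± 0.306, Itgav 8.12% ± 0.494 and 7.68% ± 0.639, and Itga9 6.39% ± 0.712 and 7.09% ± 1.20 (SD, n = 3 each). Itga3, outside the 10 genes, held 4.03% to 10.7% in KO libraries and 5.39% to 10.99% in control libraries. Each of these shares overlapped between the groups. That of Itga10, also outside the 10 genes, did not, at 1.807% to 2.647% in KO libraries and 3.253% to 3.665% in control libraries. The normalised counts of Itga10 did not overlap either, as in 4.91% of all genes tested.

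Among the beta chains that can pair with alpha v, Itgb1 held 65.0% to 67.3% in KO libraries and 65.9% to 68.5% in control libraries. Itgb5 held 27.1% to 32.8% in KO and 26.4% to 30.8% in control libraries, Itgb3 1.96% to 4.91% and 2.67% to 5.05%, and Itgb8 0.135% to 0.695% and 0.443% to 0.612%. Itgb6, an epithelial chain, stayed at or below 0.158% in every library. Transcript shares do not give the share of assembled pairs, since beta 1 is also taken up by the other alpha chains.

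**Figure D5:**
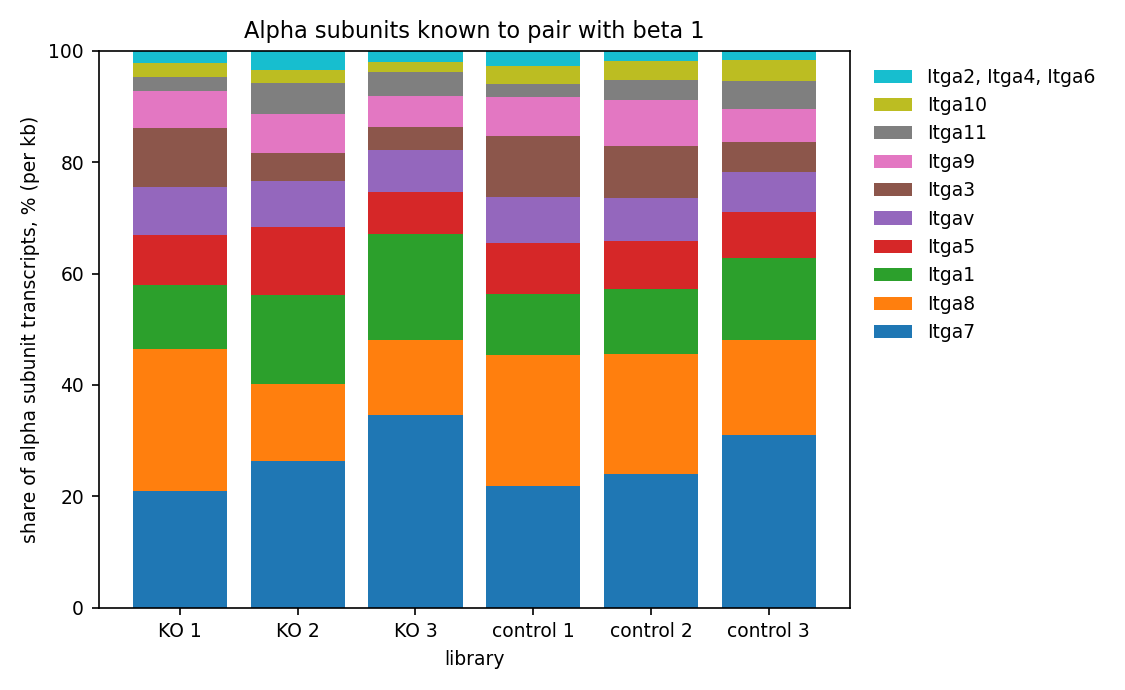
Share of each alpha chain gene, per kb of exon and in %, among 12 that are known to pair with beta 1, in 3 KO and 3 control libraries. Itga7, Itga8 and Itga1 hold the largest mean shares, although in control library 1 Itga3 is at 10.99% and Itga1 at 10.96%; the Itga8 block is 13.5% to 25.4% in KO and 17.0% to 23.6% in control libraries.

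Promoters are shown for 4 genes that followed opposite orders over the library numbers, with Itga1 and Itgb5 on the one side and Itga8 and Itgav on the other. The sequences are RefSeq windows on GRCm38.p6, from 250 bases before to 50 bases after a gene's start, written 5′ to 3′ along the gene's strand. Of the 10 genes, 8 matched the table of windows, all but Itga7 and Itgb3. The start that RefSeq uses can differ from the start listed in the data: it lies 105002 bases inside the listed gene for Itga9 and 526 bases inside for Itgb8, and neither window is printed. Capitals mark matches, on either strand, to CCGCCC, the GC box of Sp1 factors, and to CAGCTG, an E-box.

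Itga1 promoter, chr13:115101915-115102214, minus strand: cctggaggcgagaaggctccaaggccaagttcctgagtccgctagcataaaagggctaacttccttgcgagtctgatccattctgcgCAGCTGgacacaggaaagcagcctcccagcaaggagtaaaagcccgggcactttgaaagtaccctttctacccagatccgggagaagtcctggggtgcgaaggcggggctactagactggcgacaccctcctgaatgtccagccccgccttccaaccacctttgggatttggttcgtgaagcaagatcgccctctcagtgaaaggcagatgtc
Itgb5 promoter, chr16:33829415-33829714, plus strand: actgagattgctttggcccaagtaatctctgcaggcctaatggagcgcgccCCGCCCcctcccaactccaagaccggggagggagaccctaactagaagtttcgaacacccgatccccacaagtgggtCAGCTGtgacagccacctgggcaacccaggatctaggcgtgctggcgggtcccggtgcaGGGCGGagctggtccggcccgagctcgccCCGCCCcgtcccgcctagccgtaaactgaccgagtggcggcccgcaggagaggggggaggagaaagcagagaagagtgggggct
Itga8 promoter, chr2:12301895-12302194, minus strand: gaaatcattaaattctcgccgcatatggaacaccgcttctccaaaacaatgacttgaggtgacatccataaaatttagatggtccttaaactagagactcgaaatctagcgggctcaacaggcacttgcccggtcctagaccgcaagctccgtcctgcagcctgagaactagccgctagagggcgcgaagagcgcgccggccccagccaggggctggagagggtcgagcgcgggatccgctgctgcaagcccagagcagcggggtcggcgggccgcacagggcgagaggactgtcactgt
Itgav promoter, chr2:83724147-83724446, plus strand: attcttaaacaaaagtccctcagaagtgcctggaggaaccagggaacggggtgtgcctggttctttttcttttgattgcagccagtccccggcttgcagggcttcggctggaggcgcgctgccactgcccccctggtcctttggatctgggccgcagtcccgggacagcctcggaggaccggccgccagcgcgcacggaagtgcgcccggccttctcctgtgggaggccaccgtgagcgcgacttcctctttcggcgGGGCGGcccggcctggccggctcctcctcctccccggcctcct

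The Itga1 window held CAGCTG and the Itgb5 window both letter strings, with CCGCCC 3 times. The Itgav window held CCGCCC 1 time, and the Itga8 window neither. Each of the 2 strings occurred in 4 of the 8 integrin windows, against 35.7% of all 32851 windows for CCGCCC and 16.3% for CAGCTG; the Itga9 window, far from the listed start, is among the 4 with CAGCTG. The CArG box, to which SRF binds in many contractile genes, was in 0 of the 8 windows and in 1.63% of all. TATAAA was in 0 of 8 and 13.6% of all, and CATTCC, the core of the M-CAT element of TEAD factors, in 1 of 8 and 14.7% of all. The searched strings did not overlap one another in the printed windows. A match is a string of letters and not a bound site.

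The other integrin subunits gave no call either. Of 17 genes, 9 had a mean of at least 10 and were tested, and 0 passed in either direction, with a median log2 fold change of 0.12. The smallest p belonged to Itga10, a collagen-binding alpha chain known from cartilage, with 88, 72 and 53 in KO libraries and 110, 113 and 113 in control libraries. Every KO library was below every control, with a log2 fold change of -0.68 ± 0.20 (SE, limma adjusted p = 0.999, unadjusted p = 0.00936). Groups likewise did not overlap in 4.91% of all genes tested. Itga6, a laminin-binding alpha chain common in endothelium, had 36, 88 and 46 in KO libraries and 40, 28 and 29 in control libraries, beside the endothelial marker sums given above, whose part was not tested. Itga3, another laminin-binding alpha chain, had 391, 170 and 130 in KO libraries and 409, 336 and 183 in control libraries, with KO libraries 2 and 3 below every control. Its level per kb, 40.3 ± 24.6 in the KO and 54.2 ± 20.2 in the control group (SD, n = 3 each), was close to that of Itgav.

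Among 30 genes of integrin activators and adhesion adaptors, 27 were tested and 0 passed in either direction, with a median log2 fold change of 0.0092. Those with the smallest p were Parvb, Bcar1 and Tns3. Parvb, a parvin of the ILK complex, had low counts of 5, 30 and 18 in KO libraries and 5, 3 and 5 in control libraries. Bcar1, the docking protein p130Cas, had 161, 262 and 232 in KO libraries and 160, 160 and 184 in control libraries, with KO library 1 within the control range. Tns3, a tensin that binds beta tails, had 293, 337 and 309 in KO libraries and 285, 259 and 275 in control libraries. The groups did not overlap in Tns3, as in 4.91% of all genes tested. The log2 fold changes of Parvb, Bcar1 and Tns3 were 1.54, 0.35 and 0.20, each with a limma adjusted p of 0.999.

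Among 30 genes of integrin ligands, 29 were tested and 0 passed in either direction, with a median log2 fold change of 0.06. Svep1, the ligand of alpha 9 beta 1 named above, had 299, 364 and 387 in KO libraries and 384, 486 and 517 in control libraries. It was lower in the KO library in all 3 same-numbered cases, with a log2 fold change of -0.40 ± 0.16 (SE, limma adjusted p = 0.999, unadjusted p = 0.0388), and the groups overlapped by KO library 3 alone. Npnt, for nephronectin, the ligand of alpha 8 beta 1, had 117, 70 and 43 in KO libraries and 81, 142 and 90 in control libraries. Lama5, a laminin alpha chain of vascular basement membranes, had 2435, 1329 and 1259 in KO libraries and 2982, 2122 and 1458 in control libraries. Npnt and Lama5 overlapped between the groups, with log2 fold changes of -0.51 and -0.39.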

How the data were processed

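RNA of 6 sorted samples, 3 KO and 3 control, was sequenced from a low-input stranded total RNA kit, per the labels' protocols. Per the submitters' processing notes, DESeq2 1.18.1, featureCounts 1.6.5, STAR 2.6.1d and Trimmomatic 0.39 were used with builds mm10 and GRCm38.p5, in roles not stated. The deposited values are a score, taken here to be read counts scaled by the authors with 1 factor for each library, then rounded. Duplicate removal, which would compress abundant genes, is not stated. The worth of 1 read was estimated per library on a grid from 0.6 to 2 in steps of 0.0005. Whole reads were not recovered, as values in 4 libraries can stand for more than 1 read number. The correlation of the best fit was 0.841, 0.616 and 0.957 in KO libraries 1, 2 and 3. In control libraries 1, 2 and 3 it was 0.627, 0.573 and 0.925, so the read numbers are rough.

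The test was limma 3.58.1 (R 4.3.3, trend, 2-sided) on log2(value + 1) for 12735 genes with a mean of at least 10, adjusted by Benjamini-Hochberg over all of them at 0.05. The code was also run on simulated counts of equal depth and without an effect of the library number. These libraries differ in both, so that run does not give error rates for these data. Fold changes on this scale understate low genes. Exon lengths came from GENCODE M21 (GRCm38). Intervals per gene are limma's 95% intervals. Named genes were the 10 members, Gprc5c, in each list the genes that passed or else the 3 with the smallest p, and 3 likest genes for the 3 widest-ranging members. Members and lists were chosen with earlier results of these data known. Groups came from the sample descriptions; no label states separate animals for the libraries of a group, and p-values then reflect only sample-to-sample spread, part of which may be technical. Within a group, any 2 libraries differed beyond counting noise (chi-square over degrees of freedom, 2.92 to 9.25).

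Over genes, same-numbered KO and control libraries deviated together from their group means, with correlations of 0.586, 0.31 and 0.444 for numbers 1, 2 and 3, and at most 0.157 for other pairs. The low values of the other pairs are partly fixed by the centring, since the deviations of 3 libraries from their mean add to 0. Because of the same-number correlations, the numbers were taken as pairs in the replicate block, a choice that rests on the data and not on a label. The main fit used no block. The alternatives were another pseudocount, no filter, 2 rescalings, no trend, sample weights, the block, and leaving out each library.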

Additional observations from a re-analysis of the deposited data

How the results depend on the processing

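Every alternative left 0 of the 10 integrin genes past the threshold: a pseudocount of 5, no filter, upper-quartile and median-ratio scaling, limma without trend, sample quality weights, the replicate block and leaving out each of 6 libraries. The smallest adjusted p of any member in any of them was 0.195, for Itga8. Over all genes the count was 0 in each of them except 1 gene with the replicate block (Cd300a) and 2 with sample quality weights (Ifit1 and Cd300a), with 1305 and 2228 genes at an unadjusted p under 0.05 against 230 without them; the cause was not tested. Of 130 estimates, 10 genes under 13 settings, 121 kept their direction and 9 turned. Itgav was at -0.0207 with sample quality weights. The other 8 turns came from leaving out 1 library, where estimates ran from -0.115 to 0.264 for Itga5, -0.13 to 0.141 for Itga7, -0.0786 to 0.108 for Itgav and -0.304 to 0.274 for Itgb3. The block changed no call of an integrin gene. Without the filter on low values the median of all genes was -0.14 in place of 0.0011. Without KO library 1, 1308 of 12766 tested genes had an unadjusted p under 0.05 in limma, and 3 of the 10 integrin genes did. With sample quality weights it was 2228 of 12735 tested genes and again 3 of the 10. Without control library 2 it was 124 of 12786 tested genes, and without KO library 3 125 of 12737, with 0 of the 10 in both. Depth limits Itgb8 most, with an estimated 6 reads in KO library 3.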

Other observations

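Integrin genes best known from leukocytes were measured at low values that differed between libraries. Itgb2, the beta chain of leukocyte integrins, had 33, 6 and 63 in KO libraries 1, 2 and 3 and 61, 3 and 31 in control libraries 1, 2 and 3, and so was lowest in the libraries numbered 2 of both groups. Itgam, its partner on macrophages and granulocytes, had 15, 0 and 11 in KO libraries and 14, 0 and 16 in control libraries, lowest in the same libraries. The leukocyte marker sum was likewise lowest there, at 92 in KO library 2 and 88 in control library 2. Itgal, Itgax, Itgae, Itgad and Itgb7 did not exceed 19 in any library and fell under the filter.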
